A study of Homo sapiens with 4 samples.

Results

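Open chromatin of ARID1A-depleted Huh7 cells was compared between rapamycin and its vehicle, DMSO. Huh7 is an established human liver cancer line, and both libraries of this comparison came from cells carrying a short hairpin RNA against ARID1A (shARID1A). The first received 100 nM rapamycin for 6 h and the second DMSO. A further pair of libraries, from cells with a control hairpin (shControl) in 100 nM rapamycin for 6 h or in DMSO, completes the 4 libraries of the study and is used here only beside the shARID1A values. Each library was made by ATAC-seq, in which a transposase cuts and tags accessible DNA, from 50000 cells, and each group held 1 library. The labels do not say whether the hairpin cells were 1 clone or a pool.

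Members of the comparison were all peaks of the 2 shARID1A lists, on GRCh38. They numbered 44760 in rapamycin and 45700 in DMSO, of 192435 peaks in the 4 lists. A DMSO peak that shared no base with any rapamycin peak was called lost, and a rapamycin peak that shared no base with any DMSO peak was called gained. For peaks present in both lists, the change in rank was followed. Every peak was given a percentile within its own list by the authors' Peak Score, with the strongest at the top, since nothing used here states the scale of the score. Each side held 1 library, so the spread between cultures is unknown and no test was possible. Intervals on shares are exact (Clopper-Pearson) 95% intervals that cover counting error only. In such bulk libraries, fewer open cells and less opening per cell cannot be told apart.

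ARID1A is a DNA-binding subunit found in BAF, a SWI/SNF-type complex that uses ATP to move nucleosomes and that keeps many enhancers accessible. Rapamycin binds FKBP12, and the pair inhibits mTORC1, the kinase complex that couples nutrients and growth factors to translation, lipid synthesis and lysosome function. Downstream programmes of mTORC1 include targets of SREBP, HIF1 and ATF4, genes of lysosome and autophagy under TFEB, and the feedback from S6 kinase to insulin signalling.

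Promoters picked as examples, and not in order of peak strength, are shown first. Each is given as the 250 bases before the RefSeq start on GRCh38.p14, 5′ to 3′ on the gene's strand. Capitals mark each GC box, the SP-family motif GGGCGG, on either strand. The first pair lay under peaks found in rapamycin and not in DMSO: ZNF358 (chr19:7515853-7516102, plus strand), a zinc finger protein gene, and CSNK2A2 (chr16:58198107-58198356, minus strand), which encodes a catalytic subunit of casein kinase 2.
ZNF358: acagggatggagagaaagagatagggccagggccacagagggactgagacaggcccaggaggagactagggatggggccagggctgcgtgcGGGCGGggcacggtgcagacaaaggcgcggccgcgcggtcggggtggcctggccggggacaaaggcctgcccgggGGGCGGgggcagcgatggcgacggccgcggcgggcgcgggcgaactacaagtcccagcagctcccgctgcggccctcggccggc
CSNK2A2: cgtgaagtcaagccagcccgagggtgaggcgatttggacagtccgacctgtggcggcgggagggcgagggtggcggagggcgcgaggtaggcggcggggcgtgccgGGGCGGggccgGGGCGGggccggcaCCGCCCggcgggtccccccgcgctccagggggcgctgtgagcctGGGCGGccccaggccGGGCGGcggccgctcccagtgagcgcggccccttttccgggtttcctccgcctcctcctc

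The next promoters lay under peaks found in DMSO and not in rapamycin. They belong to ELOVL3 (chr10:102226049-102226298, plus strand), a fatty acid elongase, to LLGL1 (chr17:18225385-18225634, plus strand), a cell polarity protein, and to GRB10 (chr7:50793454-50793703, minus strand), an adaptor that mTORC1 phosphorylates and that restrains insulin receptor signalling. GC content of these 250 bases was 62.8% in ELOVL3, 84.8% in LLGL1 and 81.6% in GRB10, against 74.4% in ZNF358 and 79.2% in CSNK2A2.
ELOVL3: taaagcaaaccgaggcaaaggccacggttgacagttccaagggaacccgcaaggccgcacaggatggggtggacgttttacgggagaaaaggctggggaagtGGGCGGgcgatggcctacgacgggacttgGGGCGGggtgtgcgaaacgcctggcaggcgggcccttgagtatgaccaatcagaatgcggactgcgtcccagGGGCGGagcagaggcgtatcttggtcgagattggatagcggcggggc
LLGL1: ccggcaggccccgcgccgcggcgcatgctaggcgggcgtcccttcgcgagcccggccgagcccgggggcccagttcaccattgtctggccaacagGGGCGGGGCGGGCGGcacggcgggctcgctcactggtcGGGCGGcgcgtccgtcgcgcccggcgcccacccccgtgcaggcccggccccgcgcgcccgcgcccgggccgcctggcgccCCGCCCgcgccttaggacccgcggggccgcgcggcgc
GRB10: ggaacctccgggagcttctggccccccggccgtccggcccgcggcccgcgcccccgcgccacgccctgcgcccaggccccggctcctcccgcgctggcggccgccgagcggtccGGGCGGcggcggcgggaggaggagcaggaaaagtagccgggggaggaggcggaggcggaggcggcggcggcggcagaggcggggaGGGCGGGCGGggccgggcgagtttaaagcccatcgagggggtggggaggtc

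Rapamycin and DMSO lists shared most of their peaks, and almost all of the difference lay among weak peaks. Gained peaks numbered 8618 of 44760, which is 19.3% of the rapamycin list (18.9 to 19.6%). Lost peaks numbered 9707 of 45700, or 21.2% of the DMSO list (20.9 to 21.6%). The median gained peak stood at percentile 15.0 of the rapamycin list, and the median lost peak at percentile 15.5 of the DMSO list. In the weakest decile of each list 66.2% of rapamycin peaks were gained and 75.1% of DMSO peaks were lost. In the stronger 50% of each list the counts were 300 gained peaks, 1.34%, and 463 lost peaks, 2.03%. In the strongest decile 0 of 4476 rapamycin peaks were gained, which allows up to 0.0824%, and 0 of 4570 DMSO peaks were lost. Both kinds were narrow: gained peaks had a median width of 426 bp against 791 bp for shared rapamycin peaks, and lost peaks 454 bp against 861 bp for shared DMSO peaks. Near misses were few, since 130 of 8618 gained and 126 of 9707 lost peaks had a peak of the other list within 200 bp.

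**Figure D1:**
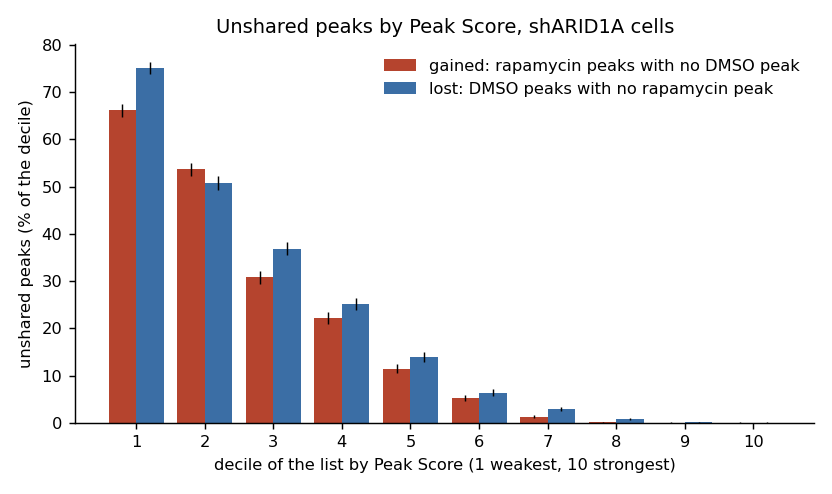
Share of peaks without a partner in the other shARID1A list (y axis, %) by decile of Peak Score within each list (x axis), for gained rapamycin peaks (red) and lost DMSO peaks (blue); bars show exact 95% intervals. The share was 66.2% for gained and 75.1% for lost peaks in the weakest decile and 0 in the strongest.

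The lists differed in ways that bear on these counts. Rapamycin peaks covered 35.1 Mb with a median width of 696 bp, and DMSO peaks 38.3 Mb with a median width of 759 bp. At shared positions 61.7% of peaks were narrower in rapamycin (median 794 bp against 863 bp in DMSO), while in shControl cells 43.1% were narrower in rapamycin. Read depth is unknown, and the part of depth in the counts was not tested. The peak over the ARID1A promoter stood at percentile 74.1 in shARID1A rapamycin, 76.7 in shARID1A DMSO, 84.4 in shControl rapamycin and 84.2 in shControl DMSO; a hairpin acts on the transcript, so this does not check the knockdown. Among hepatocyte genes the promoters of HNF4A and FOXA3, liver transcription factors, and of TF, transferrin, were covered in all 4 lists, with HNF4A at percentile 79.1 in shARID1A rapamycin and 81.0 in shARID1A DMSO, while those of ALB, albumin, APOA2, SERPINA1 and FGB were in neither shARID1A list. Of the markers of other cell types, 0 endothelial promoters were covered in any list, while 2 of 4 leukocyte, 3 of 4 neuron and 1 of 2 stellate or fibroblast promoters were covered in every list.

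Peak numbers run in genome order, and the DMSO list skips 6666 of its numbers (12.7%) while the rapamycin list skips 0. A rapamycin peak can therefore be called gained at a place where the DMSO list is missing an entry. Intervals between neighbouring DMSO peaks that hold a skipped number made up 11.4% of all intervals, yet contained 3567 gained peaks, 41.4% of them. At equal interval length there were 68.5 gained peaks per 100 intervals with a skipped number and 27.6 per 100 without. Giving each skipped number to at most 1 gained peak left 5607 gained peaks, 12.5% of the rapamycin list, and 5051 lay in intervals with no skipped number. A region gained in an interval with a skipped number was present in shControl DMSO in 51.1% of cases, against 34.4% for gained regions elsewhere. The gained peaks in such intervals were also stronger, with a median percentile of 19.7 against 12.7 elsewhere. The lost count is not touched in this way, because the rapamycin list skips no number, although skipped DMSO numbers could stand for further lost peaks. Chromosomes with more skipped DMSO numbers had larger gained shares (Pearson r = 0.77 over 23 chromosomes, whose points share both libraries, as a description). Chromosome 19 had 4.43% skipped and 13.1% gained, while chromosome 4 had 18.3% skipped and 22.7% gained. Outside the skipped numbers the gap between them was smaller, with 10.3% gained on chromosome 4 and 9.84% on chromosome 19. These shares keep all rapamycin peaks in the denominator, so the filter itself took more from chromosome 4, which has more skipped numbers.

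**Figure D2:**
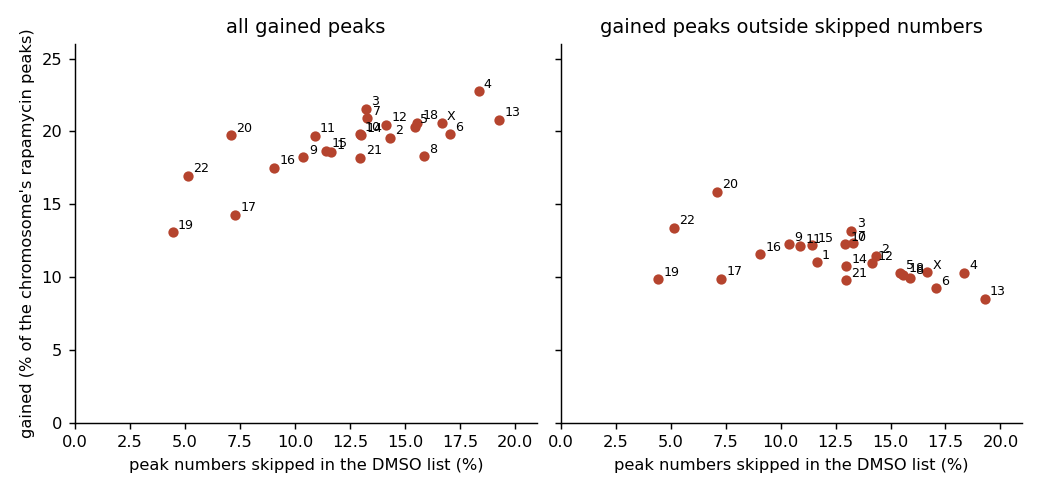
Gained peaks as a share of each chromosome's rapamycin peaks (y axis, %) against the share of peak numbers skipped in the DMSO list (x axis, %), for all gained peaks (left) and for those outside skipped numbers (right); each point is 1 chromosome. On the left the shares run between 13.1% on chromosome 19 and 22.7% on chromosome 4, and on the right chromosome 20 is highest at 15.9%.

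Distal sites differed far more often than promoters. Within 1 kb of a start, 578 of 12823 rapamycin peaks were gained (4.51%) and 849 of 13067 DMSO peaks were lost (6.5%). Beyond 1 kb, 8040 of 31937 rapamycin peaks were gained (25.2%) and 8858 of 32633 DMSO peaks were lost (27.1%). Distal peaks were weaker, and with the Peak Score makeup of promoters the distal shares came to 6.99% gained and 8.25% lost. The gained share grew with distance from the start, through 19.4% at 1 to 5 kb and 25.9% at 10 to 50 kb, and reached 31.4% beyond 100 kb. Gained peaks outside skipped numbers, as a share of all rapamycin peaks, were highest at 5 to 10 kb, 16.8%, and 10.2% beyond 100 kb. Intervals with a skipped number held 439 of 649 gained peaks beyond 100 kb and 394 of 1274 at 5 to 10 kb. The filter thus removed more of the far peaks, so these shares cannot show whether the trend remains. Lost peaks showed little dependence on distance beyond 1 kb, with 25.5% at 1 to 5 kb and 28.5% beyond 100 kb. By annotation, the gained shares were 12.7% in exons, 24.0% in introns and 26.6% between genes, against lost shares of 16.5%, 26.7% and 26.5%. Exon peaks were stronger than those in introns or between genes. With the Peak Score makeup of promoters the gained shares came to 6.41% in exons, 6.82% in introns and 7.403% between genes. The lost shares came to 8.45%, 8.31% and 8.27%, so the classes then differed little. Near transcription termination sites 21.9% of rapamycin peaks were gained and 27.9% of DMSO peaks were lost, or 6.73% and 8.23% with that makeup. Promoters of pseudogenes differed most often of the gene classes counted, with 20.5% gained and 21.4% lost, whereas protein-coding promoters had 2.65% gained and 4.36% lost. Pseudogene promoter peaks were also weaker, with median percentiles of 55.8 in rapamycin and 60.1 in DMSO, against 83.3 and 83.6 for protein-coding ones. The part of peak strength in this contrast was not tested.

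Several gained peaks within 1 kb of a deposited start had high ranks. The gained peak at UBE2V1, a ubiquitin-conjugating enzyme variant (chr20:50115609-50116138), was at percentile 79.6 and stood at 85.2 in shControl rapamycin and 84.0 in shControl DMSO. So the UBE2V1 site is missing in shARID1A DMSO and present in the 3 other lists. MAST3, a microtubule-associated kinase, showed the same layout, with percentile 65.1 in shARID1A rapamycin, 46.3 in shControl rapamycin and 63.5 in shControl DMSO. ZNF358 and CSNK2A2, at percentiles 58.5 and 55.2, were found in the shARID1A rapamycin list and in none of the other lists. The nearest shARID1A DMSO peak lay 6002 bp from the ZNF358 peak and 566 bp from the CSNK2A2 peak. Of similar rank were the unmatched names AL161640.1 (56.9) and AC022748.3 (54.6) and a peak named for GPR35, a G protein-coupled receptor (56.9). The GPR35 peak lay 741 bp from the deposited start but in intron 5 of the gene by annotation, and the RefSeq promoter window of GPR35 was covered in neither list. At UBE2V1 and MAST3 the RefSeq window was covered in both lists, so the gained peak lay outside it. All of these lay in intervals without a skipped number, as the naming rule required.

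The strongest lost promoter peak lay over LLGL1. This peak (chr17:18225322-18226370, 1049 bp, in its first intron and promoter) stood at percentile 87.3 in shARID1A DMSO, and was present in shControl rapamycin at 78.3 and in shControl DMSO at 90.0; the nearest shARID1A rapamycin peak lay 6980 bp away. ELOVL3 (chr10:102226110-102226420) was at percentile 79.4 in shARID1A DMSO and at 68.0 in shControl rapamycin, and absent from the shARID1A rapamycin and shControl DMSO lists. SEZ6, a neuronal membrane protein, had percentiles of 77.4 in shARID1A DMSO, 77.7 in shControl rapamycin and 64.8 in shControl DMSO. The kinesin KIF21B had 76.9, 73.6 and 78.5 in the same lists, and the read-through transcript INO80B-WBP1 76.9, 74.5 and 66.8. At LLGL1, SEZ6, KIF21B and INO80B-WBP1 the site was thus present in every list but shARID1A rapamycin, whose lack of a peak defines a lost one. YAF2, a partner of the polycomb-linked factor YY1, lost a peak 728 bp from its start, which is annotated to the promoter of PPHLN1, at percentile 72.1, with another rapamycin peak 294 bp away. AC131212.1 (83.4) is an unmatched name, and the remaining lost peak lay at the pseudogene DUX4L17.

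Among sites more than 1 kb from the deposited start, the strongest gained peak outside skipped numbers was assigned to SUN1, an inner nuclear membrane protein (chr7:815881-816647). The distance column gives −16241 bp, although the annotation column places it at a SUN1 promoter. It stood at percentile 83.0 in shARID1A rapamycin, 80.2 in shControl rapamycin and 81.8 in shControl DMSO. Sites near LINC02154 (71.7), in introns of SVIL, which encodes the actin-binding protein supervillin, and of MAPK4 (69.0, nearest name AC012433.1), and near LINC01339 (68.9) followed, apart from 1 at the pseudogene DUX4L17. The strongest lost distal sites near protein-coding genes were in an intron of PDGFC, a platelet-derived growth factor (82.2), in an intron of CYBRD1, a ferric reductase (80.1), and 23859 bp downstream of the start of the immediate early gene IER5 (79.8). Further lost sites lay in introns of ILK, integrin-linked kinase (79.3), and of MBTPS1, the site-1 protease that activates SREBP (78.3). The PDGFC, CYBRD1, IER5 and MBTPS1 sites were present in both shControl lists, at percentiles between 76.4 and 92.4, and the ILK site only in shControl DMSO, at 76.2. The site named for AC113430.1 (85.3) lay near the end of chromosome 5 and was in neither.

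Shared sites kept their rank closely. Over 35812 pairs of overlapping peaks the median shift, rapamycin minus DMSO, was −0.33 percentile points with quartiles of −6.21 and 4.88. A shift of at least 20 points upward was seen in 1678 pairs (4.69%) and downward in 2061 (5.76%). At promoters 176 of 11285 pairs were raised (1.56%) and 259 lowered (2.30%), against 1454 (6.37%) and 1738 (7.62%) of 22814 distal pairs. Large shifts were most frequent at low ranks. Of 3837 pairs with a mean percentile of 30 to 40, 13.2% were raised and 14.4% lowered by at least 20 points, against 1.21% and 1.77% of 4294 pairs with a mean of 60 to 70.

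The largest rise among promoter pairs was at MMP19, a matrix metalloproteinase (chr12:55842660-55843270). Its peak was at percentile 66.3 in rapamycin against 6.78 in DMSO, a shift of 59.54 points, and in shControl cells at 51.1 in rapamycin against 65.4 in DMSO. TFPI, the inhibitor of the tissue factor pathway of coagulation, was at 54.4 in rapamycin against 3.31 in DMSO. LOXL1, which cross-links elastin, was at 58.4 against 14.9, and in shControl cells at 55.6 in rapamycin against 37.6 in DMSO. PTCHD4, a patched-domain protein, was at 60.9 against 16.9 near its deposited start, while its RefSeq window was covered in neither shARID1A list. AC134043.2 (64.9 against 9.60) and AC023906.3 (66.8 against 20.6) are unmatched names.

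The largest drop was at MAPK8IP2, a scaffold of the JNK pathway (chr22:50600142-50600486), with percentile 14.9 in rapamycin against 62.8 in DMSO. In shControl cells this order was turned round, with 79.3 in rapamycin against 62.3 in DMSO. In shARID1A cells the RefSeq window of MAPK8IP2 was covered in DMSO only, since the rapamycin peak ended before it. TADA2B, an adaptor of the SAGA acetyltransferase complex, stood at 9.63 in rapamycin against 53.2 in DMSO, and in shControl cells at 49.8 in rapamycin against 20.8 in DMSO. These shARID1A peaks lay outside the RefSeq window of TADA2B, which was covered in both shARID1A lists. SBF1, a myotubularin-related pseudophosphatase, stood at 43.8 against 87.0, and in shControl cells at 73.8 in rapamycin against 50.2 in DMSO; its DMSO peak of 1560 bp overlapped 2 rapamycin peaks, of which the one compared was 630 bp wide. HCAR3, a receptor for hydroxylated fatty acids, stood at 17.9 against 62.7. The other names were AC127526.2 (14.0 against 57.3) and AL590705.2 (2.16 against 45.0).

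**Figure D3:**
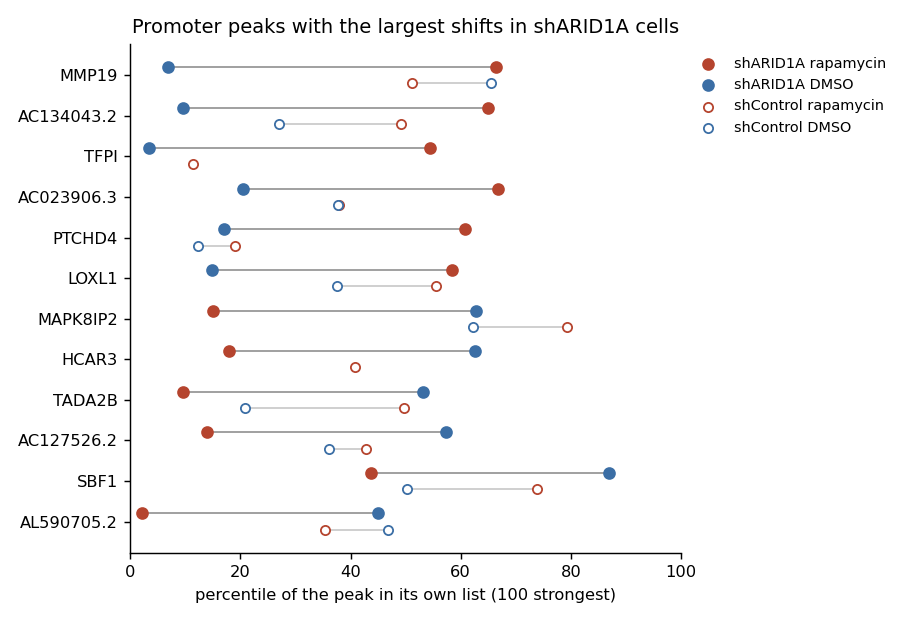
Percentile of the peak within its own list (x axis, 100 strongest) for the 6 promoter pairs with the largest rise and the 6 with the largest drop in shARID1A cells; filled points are shARID1A, open points shControl, red rapamycin and blue DMSO, with no point where a list had no peak. MMP19 stands at 66.3 in shARID1A rapamycin against 6.78 in shARID1A DMSO, and MAPK8IP2 at 14.9 against 62.8, with the shControl points in the opposite order for both.

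Counting genes by the deposited nearest-gene name gave much larger numbers than counting regions. By name, 2018 of 12663 genes had a promoter peak in rapamycin and none in DMSO (15.9%), and 2252 of 12897 the converse (17.5%). In 1497 of the 2018 and 1512 of the 2252, however, a promoter peak of the gene overlapped a peak of the other list. GAPDH, picked as an example after its names were seen, has 1 shared promoter peak (chr12:6533119-6535351 in rapamycin) that is named AC006064.3 in the rapamycin list and GAPDH in the DMSO list. Genes with no overlapping peak in the other list numbered 521 gained (4.11%) and 740 lost (5.74%). This count, and the next, were added after the renaming was seen. Over 27305 RefSeq promoter windows (250 bases before to 50 after the start), 12001 were covered in both lists, 327 in rapamycin only (2.65% of those covered in rapamycin) and 628 in DMSO only (4.97% of those covered in DMSO). Of these windows, 222 of the 327 lay under a gained peak and 378 of the 628 under a lost peak; at the others a partner peak ended outside the window. Of the 12001, 115 were raised by at least 20 points (0.958%) and 197 were lowered (1.64%). In 12 of the 115 and 21 of the 197 the peaks compared were not each other's largest overlap, as where 1 wide peak covers several.

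Promoters covered in 1 list only were poorer in GC and in GC boxes than promoters covered in both. Median GC was 57.0% for rapamycin-only windows, 62.0% for DMSO-only windows and 66.0% for windows in both lists, against 58.3% over all windows. The GC box GGGCGG, searched on both strands, was in 38.8% of rapamycin-only, 55.4% of DMSO-only and 72.1% of shared windows, and in 44.6% of all. The ETS motif CCGGAAG was in 4.59%, 5.57% and 20.0%, and in 10.7% of all windows. The AP-1 motif TGANTCA, at which FOS and JUN proteins bind, was in 11.6% of rapamycin-only (8.36 to 15.6%), 7.80% of DMSO-only (5.83 to 10.2%) and 4.30% of shared windows, and in 7.76% of all. It was also in 10.6% of the 14349 windows covered in neither list, whose median GC was 49.0%. So the rapamycin-only share was close to that of uncovered promoters. The CCAAT box was in 35.5% of rapamycin-only, 26.8% of DMSO-only and 36.4% of shared windows, and in 35.7% of all. The E-box CACGTG, bound by MYC and TFEB, was in 7.65%, 7.01% and 10.1%, and in 7.43% of all.

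The most GC-rich promoters were covered unevenly. Of 424 windows above 80% GC that either shARID1A list covered, 7 were covered in rapamycin only (1.65%, 0.666 to 3.37%) and 64 in DMSO only (15.1%, 11.8 to 18.9%). In this class 4 windows lay under a gained peak and 37 under a lost peak. In shControl cells the imbalance ran the other way, with 62 of 408 in rapamycin only (15.2%, 11.9 to 19.1%) and 13 in DMSO only (3.19%, 1.71 to 5.39%). Of the 615 windows in this class the lists covered 360 in shARID1A rapamycin, 417 in shARID1A DMSO, 395 in shControl rapamycin and 346 in shControl DMSO. The shARID1A DMSO and shControl rapamycin lists, which covered the most, are also those with skipped numbers, 6666 and 1093, while the other lists skip 0. Between 60 and 70% GC the shARID1A shares were 1.44% in rapamycin only and 2.92% in DMSO only. LLGL1, GRB10 and the SWI/SNF subunit gene BCL7A, all lost, had windows of 84.0%, 81.0% and 80.3% GC. Whether GC content had a part in these calls was not tested.

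**Figure D4:**
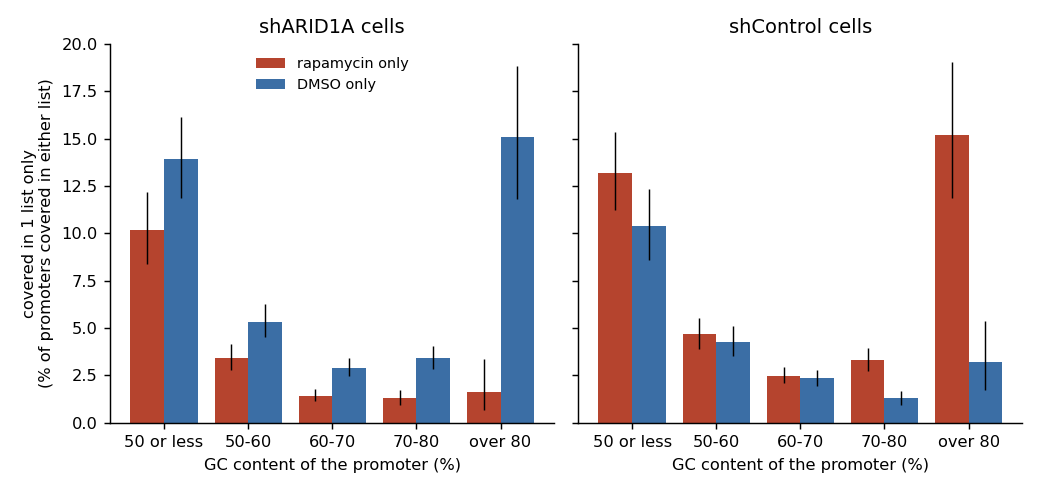
RefSeq promoter windows covered in 1 list only, as a share of those covered in either list of a genotype (y axis, %), by GC content of the window (x axis, %), for rapamycin only (red) and DMSO only (blue); bars show exact 95% intervals. Above 80% GC the shARID1A shares are 1.65% for rapamycin only and 15.1% for DMSO only, and the shControl shares 15.2% and 3.19%.

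Gene lists for mTOR signalling, its downstream programmes, YAP, hepatocyte identity and chromatin remodelling held 356 genes. Peaks nearest to them were gained in 44 of 539 cases (8.16%) and lost in 87 of 566 (15.4%), against 14.1% gained and 17.3% lost for peaks nearest to protein-coding genes, so more were lost than gained. Over all peaks with the same Peak Score deciles the shares were 12.5% gained and 16.5% lost. Unshared peaks near listed genes were weak, with 0 of 44 gained and 3 of 87 lost in the stronger 50% of their lists. Of the promoter windows of listed genes 211 were covered in both lists, 1 in rapamycin only and 13 in DMSO only. For the 211 the median shift was −0.34 points with 97 higher and 114 lower, against −0.18 over all windows in both lists. Of all 12001 windows in both lists 5657 were higher and 6344 lower, to be read beside each list's tally below.

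Genes of mTORC1 and its regulators differed little in rank. All 18 windows were covered in both lists, with 12 higher and 6 lower in rapamycin and a median shift of 0.53 points. MTOR, the kinase, stood at percentile 99.4 in rapamycin against 98.8 in DMSO. Among these windows FLCN, the folliculin GTPase-activating protein, had the largest rise, at 85.9 against 79.1, and RHEB, the GTPase that activates mTORC1, the largest drop, at 91.6 against 96.4. EIF4EBP1, a translation repressor that mTORC1 phosphorylates, was compared by deposited name only and was lower by more, at 86.1 in rapamycin against 95.4 in DMSO.

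Insulin feedback genes had 6 of 15 windows higher and 9 lower, with a median shift of −1.82 points. By deposited name, with ranks among shared pairs only, 6 of 12 promoter pairs were higher and 6 lower. IGFBP1, a carrier of insulin-like growth factors made by liver, stood at percentile 68.9 in rapamycin against 55.4 in DMSO, and in shControl cells at 58.3 in rapamycin against 69.7 in DMSO. Its relative IGFBP3 stood at percentile 45.7 in rapamycin against 74.9 in DMSO, and IRS2, an insulin receptor substrate, at 43.5 against 58.9. In shControl cells both were higher in rapamycin, IGFBP3 at 74.0 against 50.4 and IRS2 at 59.7 against 51.7. GRB10 lost both of its promoter peaks, at DMSO percentiles of 39.1 (chr7:50793328-50793961) and 5.40 (chr7:50792547-50792946), and 2 further peaks 37.5 and 95.4 kb from its start, while 1 peak 54.1 kb away was gained. Both GRB10 promoter peaks were present in shControl rapamycin and neither in shControl DMSO, so here too the shControl libraries differed in the opposite direction. The window of SGK1, a kinase downstream of mTORC2, was covered in DMSO only, at 41.2, by a peak whose overlap partner in rapamycin ended before the window.

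Among SREBP targets and lipid synthesis genes 5 of 18 shared windows were higher and 13 lower, with a median shift of −1.11 points. ACACA, acetyl-CoA carboxylase, stood at 65.9 in rapamycin against 77.9 in DMSO, and SREBF1 at 85.2 against 85.8. ELOVL6, a fatty acid elongase, lost its promoter peak, which was weak (percentile 7.89). In the glycolysis and HIF1 list GPI, the glycolytic isomerase, stood at 36.0 against 53.7 and PGK1, phosphoglycerate kinase, at 60.6 against 76.8, while HIF1A was at 97.3 against 96.4. The window of PGAM1, phosphoglycerate mutase, was covered in DMSO only (92.0), again by a peak with a rapamycin partner outside the window.

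ATF4 targets and serine synthesis genes had 3 of 13 windows higher and 10 lower, with a median of −1.52 points. By deposited name, with ranks among shared pairs only, 6 of 11 promoter pairs were higher and 5 lower. SLC7A5, the leucine transporter subunit, stood at percentile 2.05 in rapamycin against 34.9 in DMSO, and in shControl cells at 54.4 in rapamycin against 35.5 in DMSO. Its window has 80.3% GC. Of 32 DMSO peaks nearest to this list 8 were lost, 3 of them around PSAT1, phosphoserine aminotransferase, with percentiles of 5.84, 18.8 and 35.5, and 2 around the stress gene NUPR1. At the same Peak Score deciles all DMSO peaks had a lost share of 20.8%. Lysosome and autophagy genes had 7 of 15 windows higher and 8 lower. By deposited name, with ranks among shared pairs only, 9 of 16 of their promoter pairs were higher and 7 lower. Of the 28 DMSO peaks that carry one of their names 0 were lost, where the same deciles of all peaks gave 4.86%. MITF, a relative of TFEB, is the nearest gene of no peak in either list, but the DMSO peak over its RefSeq window (percentile 64.0) was lost. For TFEB (57.5) and SQSTM1 (60.4) the window was covered in DMSO only, with an overlapping rapamycin peak beside it. Ribosomal protein promoters kept their places, with 24 of 24 windows covered in both lists, 14 higher and 10 lower, and a median shift of 0.60 points.

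Among AP-1 and immediate early genes 5 of 14 windows were higher and 9 lower, with a median of −2.07 points. IER2, an immediate early gene, stood at 48.1 in rapamycin against 64.7 in DMSO. FOSB, an AP-1 subunit, had a single peak of 2406 bp in shARID1A rapamycin (chr19:45467617-45470022, percentile 81.8), where shARID1A DMSO had 2 peaks, of 440 bp at percentile 30.1 and of 1436 bp at percentile 77.6. The smaller of these lies over the RefSeq window and gives a shift of 51.7 points, while the larger gives 4.23 points, so the size of the FOSB shift depends on which DMSO peak is taken. In shControl cells rapamycin likewise had 2 peaks, at 30.6 and 77.2, and DMSO 1 peak at 80.5 that did not reach the window. Without FOSB 4 of 13 windows of the list were higher and 9 lower.

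Peaks near YAP and TEAD targets were lost at about the rate of peaks of like strength, and 8 of 11 shared promoter windows ranked higher. Of 54 DMSO peaks nearest to these genes 14 were lost (25.9%), and of 43 rapamycin peaks 3 were gained (6.98%). At the same Peak Score deciles all peaks had 21.9% lost and 12.6% gained. The 14 lost peaks belonged to 10 genes, among them AMOTL1 at 38.4 and 18.2, GADD45A at 39.4 and 13.9, and TGFB2 at 15.7 and 13.3. The other 3 shared windows were lower, and the median shift was 1.29 points. CCN1, listed as CYR61 in the files, stood at 84.6 in rapamycin against 80.4 in DMSO, ANKRD1 at 92.8 against 89.2 and CCN2 at 89.0 against 85.5. In shControl cells CCN2 stood at 44.7 in rapamycin against 85.2 in DMSO. AMOTL2 had the 1 listed window covered in rapamycin only, under a peak at percentile 95.8, with an overlapping DMSO peak beside the window.

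Hepatocyte genes had both kinds of change near weak peaks. They gained 9 of 57 nearest rapamycin peaks (15.8%) and lost 13 of 60 DMSO peaks (21.7%), where the same deciles of all peaks gave 20.1% and 27.9%. TTR, the thyroxine carrier transthyretin, gained its promoter peak (chr18:31591413-31591883, percentile 45.8), which was in neither shControl list. AHSG, fetuin-A, lost a weak promoter peak at percentile 4.79 and gained a peak 1885 bp from the start at 24.2. ONECUT1, hepatocyte nuclear factor 6, lost 3 peaks at percentiles of 20.8, 12.8 and 1.80, gained 1 at 23.2, and its covered window stood at 9.06 in rapamycin against 30.1 in DMSO. The windows of FOXA1 (59.1) and NR1I2 (15.5), a liver transcription factor and the pregnane X receptor, were covered in DMSO only, beside overlapping rapamycin peaks.

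SWI/SNF subunit genes had 8 of 19 windows higher and 11 lower. By deposited name, with ranks among shared pairs only, 7 of 12 promoter pairs were higher and 5 lower. BRD7, a PBAF subunit, stood at 25.3 in rapamycin against 47.5 in DMSO and SMARCD3, a BAF60 subunit, at 16.0 against 37.6, while SMARCD1 was at 89.9 against 82.2. BCL7A lost its peak (percentile 44.4), as did ACTL6B, the neuronal BAF subunit (21.4). Further promoter peaks by name were lost at FJX1, a YAP target (21.2), and at LUM, which encodes the matrix proteoglycan lumican (46.4). Cell cycle windows had 12 higher and 9 lower, while by deposited name, with ranks among shared pairs only, 8 of 19 promoter pairs were higher and 11 lower. PLK1, the mitotic kinase, stood at 56.3 in rapamycin against 76.2 in DMSO, and had the same order in shControl cells, at 56.8 in rapamycin against 78.4 in DMSO. CDK6 lost a weak peak over its window (7.72). In the list of epithelial-mesenchymal transition CDH2, N-cadherin, stood at 55.6 against 75.4 and ITGA5, the fibronectin receptor subunit, at 47.5 against 31.2. Across all lists 15 shared windows were lower by at least 15 points and 2, FOSB and ITGA5, were higher. Of 13 of the lower ones with a value in shControl cells, 10 were higher in rapamycin there. Over all listed windows covered in both lists, 103 of 205 with such a value moved in opposite directions in shARID1A and shControl cells. At 20 points, 1 of the 211 listed windows was raised and 5 were lowered, against 115 and 197 of all 12001 windows in both lists.

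**Figure D5:**
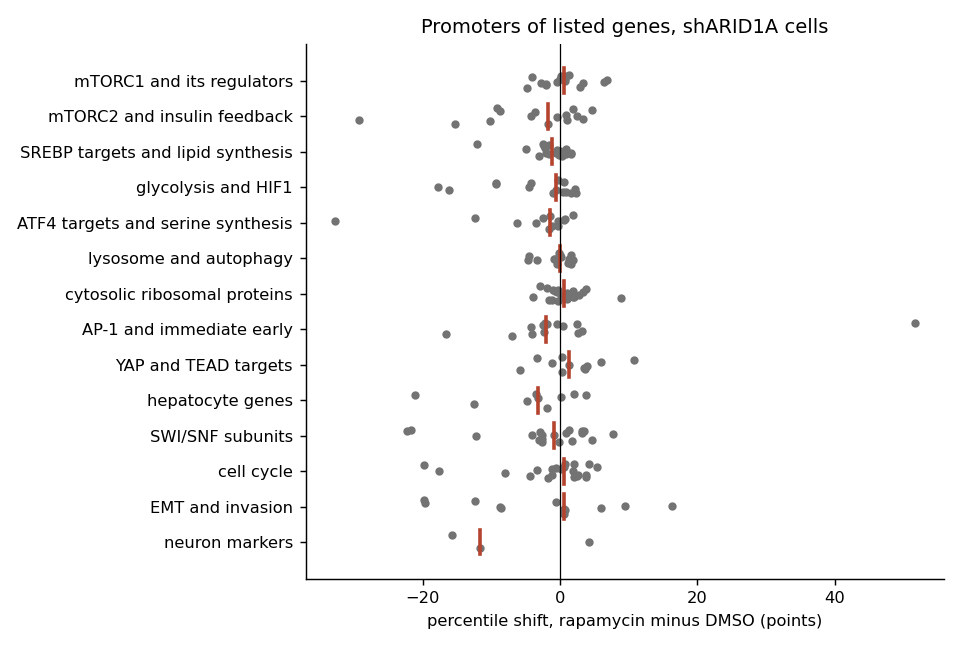
Percentile shift of the peak over each listed gene's promoter window, rapamycin minus DMSO in shARID1A cells (x axis, points), by gene list (y axis); each dot is 1 gene covered in both lists and the red line is the list's median. Medians of the 13 pathway and identity lists lie between −3.16 points for hepatocyte genes and 1.29 for YAP and TEAD targets. Lists with fewer than 3 covered genes are not drawn, so of the marker lists only neuron markers appear, with 3 genes and a median of −11.64 points. The dot at 51.7 points is FOSB, where a wide rapamycin peak is set against the smaller of 2 DMSO peaks.

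The same drug in shControl cells, with no library in common, gave rank shifts that were only weakly related. Of gained regions 13.4% were in shControl rapamycin only and 14.4% in shControl DMSO only, while 26.9% were in both and 45.3% in neither. Of lost regions 13.3% were in shControl rapamycin only and 14.9% in shControl DMSO only, with 30.3% in both and 41.5% in neither. Lost promoter peaks were found in shControl rapamycin only in 18.6% and in shControl DMSO only in 14.0%. Over 31422 regions with a peak in all 4 lists the shifts of the 2 genotypes had a Pearson r of 0.06 and a Spearman rho of 0.05, as a description across regions. Of 1248 regions raised by 20 points in shARID1A cells, 10.6% were raised and 11.1% lowered in shControl cells. Of 1714 lowered regions, 5.72% were raised and 11.1% lowered there, against 4.02% and 5.79% of all regions. Among the 628 windows covered in DMSO only, 74 showed the same difference in shControl cells and 147 the opposite. For the 327 rapamycin-only windows the counts were 54 and 45. Without windows above 80% GC the DMSO-only counts were 68 and 123 of 564. Over all 27305 windows shControl rapamycin covered 12505 and shControl DMSO 12333. In shControl cells rapamycin-only windows thus outnumbered DMSO-only ones, and did so in every GC class. The part of this imbalance in the counts was not tested.

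Gained and lost peaks were spread thinly along the genome. Of 30226 nearest-gene names 17373 had neither, 5137 only gained, 5618 only lost and 2098 both. The largest net gains by name were at AC092667.1, with 6 gained and 0 lost, and at DCDC1, a doublecortin-domain gene, with 6 gained, of which 2 lay outside skipped numbers. AC092667.1 had 14 peaks in rapamycin and 1 in DMSO, which again shows renaming, since 6 of the 14 were gained. AC012594.1 had 5 gained with 0 outside skipped numbers, AC107882.1 had 6 gained and 2 lost, and RF00601 had 5 gained but is a family name used on 4 chromosomes. The largest net losses at a single locus were at AC006012.1 (1 gained, 8 lost), and at DNAH5, an axonemal dynein, TNS3, the adhesion protein tensin 3, and ELOBP4, each with 1 gained and 7 lost. RF00019 had 1 gained and 9 lost, but its peaks in the rapamycin and DMSO lists together lie on 14 chromosomes. The longest run was of 10 consecutive lost DMSO peaks on chr7:70846501-71290786, a span of 444 kb named for AC073873.1 and MIR3914-2, all at or below percentile 20.0.

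Ranks also shifted by chromosome. At shared pairs, ranked among shared pairs only, 55.8% were higher in rapamycin on chromosome 19 and 54.7% on chromosome 22, against 46.2% on chromosomes 4 and 18 and 46.9% on chromosome 13. The share higher went with the chromosome's share of promoter peaks (Pearson r = 0.58, Spearman rho = 0.40) and did so for distal pairs as well (0.67 and 0.59), over 23 chromosomes whose points share both libraries, as a description.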

How the data were processed

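The data are 4 peak lists, 1 per ATAC-seq library. Per the file headers the deposited columns are the authors' Peak Score, annotation, distance to the start and nearest gene; the score was used only to rank peaks within a list. BWA, MACS2 2.0 and GRCh38 (hg38) are named in the submitters' processing notes. Settings, read depth, duplicates and the transposase offset were not stated in the sources at hand. Peaks were listed per library. Overlaps needed 1 shared base, promoters lay within 1000 bp of the start, and a shift was 20 percentile points. Distance-based and name-based counts use the deposited columns. Of 30226 nearest-gene names 21465 matched RefSeq (GRCh38.p14), and 3 listed genes were matched through older symbols. Named items are the strongest unshared peaks, the largest shifts, the largest net counts per name and, per list, the largest shifts. Members, lists and rules were chosen with earlier results of these data known. Overlap, pairing and skipped-number steps were tested on simulated lists. Python 3.11.15, pandas 2.3.3, NumPy 2.4.6, SciPy 1.17.1 and matplotlib 3.10.9 were used. With 1 library a group no p-value was computed. Some items that the naming rule selects are not reported here.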

Additional observations from a re-analysis of the deposited data

Results flagged for a closer look

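Promoter peaks named above were listed here where rapamycin and DMSO differed in opposite directions in shARID1A and shControl cells and the 2 shifts lay at least 40 points apart. With 1 library per group the difference between genotypes was not tested. MMP19 had a shift of 59.54 points in shARID1A cells and −14.37 in shControl cells, a difference of 73.9 points. TADA2B had −43.56 and 29.01, a difference of −72.6, at a peak outside its RefSeq window. SBF1 had −43.18 and 23.60, a difference of −66.8. MAPK8IP2 had −47.85 and 17.02, a difference of −64.9. IGFBP3 had −29.21 and 23.55, a difference of −52.8. SLC7A5 had −32.81 and 18.87, a difference of −51.7. AC127526.2 had −43.31 and 6.59, a difference of −49.9. CCN2 had 3.51 and −40.44, a difference of 43.9, so that here the shift lay in shControl cells.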

How the results depend on the processing

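Of 60 recomputed counts 37 stayed within 1.5 times of the reported ones, among them all of those with equal list lengths, with an overlap of 50% of the shorter peak or with a gap of 200 bp allowed. Asking only the stronger 50% of each list left 300 gained and 463 lost peaks, 164 gained outside skipped numbers, 27 gained and 53 lost promoter peaks, 273 gained and 410 lost distal peaks, 1277 names gaining and 1363 losing promoter peaks, and 873 raised and 1036 lowered pairs. Without intervals holding a skipped number 5051 peaks, 4675 distal and 376 promoter peaks, were gained. A promoter limit of 500 bp left 377 gained promoter peaks. Names were also recounted in ways chosen after seeing the data: requiring no overlapping peak left 521 gaining and 740 losing, and RefSeq windows 327 and 628, or 320 and 564 at no more than 80% GC. A shift of 10 points gave 5104 raised and 6014 lowered pairs. The 12 named shifts kept their sign when ranked among shared pairs only. Overlap and gap settings could not be applied to names. No paired analysis was possible because each group held 1 library. Depth is unknown, so absence of a weak peak is not evidence of closed chromatin.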
